A study of Drosophila melanogaster with 3 samples.

Results

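Dek is a conserved DNA- and histone-binding protein of chromatin. The 502 regions described here are the peaks of GFP-tagged Dek that lay between genes, away from any annotated start of transcription, in *Drosophila melanogaster* embryos. They were chosen from the peaks that the authors kept after a threshold on the irreproducible discovery rate (IDR). A peak belonged to the set when its summit lay outside every annotated gene, transposable elements left out, and more than 500 bp from the nearest transcription start site (TSS) of any gene. These 502 were 10.6% of the IDR peaks (exact 95% binomial interval 9.74 to 11.5), and the other 4234 peaks comprised 2660 promoter peaks, within 500 bp of a TSS, and 1574 peaks inside genes and farther from a TSS. Chromatin immunoprecipitation with sequencing (ChIP-seq) had been performed on sonicated chromatin of whole embryos, both sexes mixed and 0 to 24 h old, from a transgenic line that stably makes Dek with GFP fused to its C terminus. The antibody was against GFP. The 3 biological replicates formed 1 group, and no input or untagged library was among the samples, so every comparison is between positions in the genome or between replicates. The embryos span all of embryogenesis and every tissue, so a peak cannot be assigned to a stage or a cell type, and fewer cells with Dek at a site cannot be told apart from less Dek per cell.

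Intergenic sequence away from promoters holds enhancers, silencers and insulators as well as the spacers between unrelated genes. Insulator proteins such as CTCF and Su(Hw) mark many boundaries between chromosomal domains in the fly, and Polycomb group proteins hold developmental genes silent from response elements that can lie far from the promoter. Dek binds DNA with little known preference for sequence and, in flies and mammals, acts with histones of the H3.3 type. None of these other factors was measured here.

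Peak summits in intergenic sequence were rich in A and T. The mean GC content of windows reaching 100 bp to each side of a summit was 34.3%, against 41.4% in windows centred 500 bp to either side, and 405 of the 502 regions (80.7%) had a lower GC content at the summit than in their flanks. That share was close to the 81.6% of all IDR peaks. The 121 bp around 6 strong summits are shown, the first 5 because they carry this base composition. They are the plus strand of the RefSeq Release 6 sequence in dm6 coordinates, and capitals mark unbroken runs of at least 7 A or T. The name gives the flanking protein-coding genes.
RFeSP to chinmo, chr2L:1638735-1638855: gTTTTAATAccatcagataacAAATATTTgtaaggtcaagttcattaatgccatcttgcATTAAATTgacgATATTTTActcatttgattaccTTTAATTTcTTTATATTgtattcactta
NijA to CG43245, chr3L:10752711-10752831: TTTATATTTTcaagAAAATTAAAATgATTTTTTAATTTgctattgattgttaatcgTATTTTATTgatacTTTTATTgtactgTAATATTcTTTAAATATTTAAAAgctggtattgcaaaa
CG9922 to foxo, chr3R:14053538-14053658: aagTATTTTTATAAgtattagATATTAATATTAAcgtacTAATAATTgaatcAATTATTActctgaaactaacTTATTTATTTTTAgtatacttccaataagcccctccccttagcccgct
Sol1 to Cyp9f2, chr3R:12403068-12403188: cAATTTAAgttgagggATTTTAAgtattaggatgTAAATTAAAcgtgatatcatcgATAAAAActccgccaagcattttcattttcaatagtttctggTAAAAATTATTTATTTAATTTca
ph-d to ph-p, chrX:2124206-2124326: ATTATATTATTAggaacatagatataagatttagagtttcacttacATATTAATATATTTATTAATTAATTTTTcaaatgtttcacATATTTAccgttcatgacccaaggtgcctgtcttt
mtSSB to tara, chr3R:16222434-16222554: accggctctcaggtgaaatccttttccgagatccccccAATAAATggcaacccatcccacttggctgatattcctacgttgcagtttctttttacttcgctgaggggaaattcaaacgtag
The first 5 are between 73.6% and 82.6% A and T. The last had 52.9% A and T, and it was the second strongest of all 502. It was not alone, since 9 of the 12 strongest had lower GC at the summit than in the flanks. Other strong summits whose 121 bp were read ran from 61.2% A and T, at X 2124065 between ph-d and ph-p, to 76.9%, at 3R 16224513. The stretch between ph-d and ph-p lies outside the rule for named regions and was picked after its values were seen.

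A pair of 8-letter sequences was found more often at the summits than beside them, and each is shown in 3 of the regions that hold it. The first is the core of the motif bound by CTCF, the fly form of a zinc-finger insulator protein, GGTGGCGC, in capitals below as its reverse complement. The second is CACTGAGA or its reverse complement, a sequence that led a scan of 8-letter words made after the values were seen. Each window is 41 bp of the plus strand, RefSeq Release 6 in dm6 coordinates.
CTCF core, jp to brwl, chr2L:9567468-9567508: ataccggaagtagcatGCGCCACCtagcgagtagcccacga
CTCF core, Imp to sbr, chrX:10832548-10832588: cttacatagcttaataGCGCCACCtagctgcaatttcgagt
CTCF core, hry to SrpRbeta, chr3L:8718728-8718768: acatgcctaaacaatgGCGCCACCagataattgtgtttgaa
CACTGAGA, CG10089 to stv, chr3L:13476839-13476879: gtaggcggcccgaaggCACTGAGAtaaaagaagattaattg
CACTGAGA, slp1 to slp2, chr2L:3832567-3832607: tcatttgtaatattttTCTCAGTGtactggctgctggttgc
CACTGAGA, NijA to CG43245, chr3L:10735330-10735370: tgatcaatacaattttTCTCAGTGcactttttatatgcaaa
The counts behind both are given with the motifs further on.

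Without read counts in the files, sample depth is unknown. Each replicate list held 30000 peaks. No unit is stated for the authors' deposited signal, which was therefore compared between lists only by place, with 1 for the strongest peak. The lowest −log10 q was 3.25 in the IDR list and between 0.186 and 0.407 in the replicate lists, whose weakest peaks are thus not significant. Replicate 1 had only 2 of its 30000 peaks on chromosome 4, against 46 in replicate 2 and 21 in replicate 3. No list had a peak on Y. The IDR peaks are drawn from the pooled reads of these same replicates, so recurrence of a peak in the replicates is in part built in.

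The intergenic regions were of middling strength. Their median signal was 253, against 281 at promoter peaks and 252 at the other peaks inside genes, with a range from 164 to 2558. Of the 502, 218 (43.4%) were in the upper part of the IDR list above its median place, and 6 of the 100 strongest IDR peaks were intergenic. Their median width was 284 bp, against 398.5 bp at promoter peaks, 299.5 bp at the other genic peaks and 359 bp over all other IDR peaks. The upper quartile was 400 bp in each of these classes. A width of exactly 400 bp recurred among the regions, so the medians may not measure the extent of a peak. The RefSeq annotation gave the same 502 regions. Only 2 summits lay in an annotated transposable element, one near ed and one near del. A further description of repeats comes from the lower-case letters of the reference, which covered 113 summits (22.5%), against 26.5% of promoter peaks and 26.4% of the other genic peaks.

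Recurrence was measured as the share of summits inside one of the strongest peaks of a replicate, as many as the IDR list holds. In replicate 1, 74.3% of intergenic summits recurred, against 76.9% of the other IDR summits and 76.6% of all. Replicate 2 held 78.9% of intergenic summits, against 83.6% of the others and 83.1% of all. In replicate 3 the shares were 72.3% for intergenic summits and 72.2% for the others, with 72.3% for all. The mean difference was -2.40 ± 2.38 percentage points (SD, n = 3 replicates; exact two-sided sign-flip permutation test, p = 0.5), within the spread between replicates. With 3 replicates this test cannot give a p below 0.25. All 3 replicates held 238 of the intergenic summits (47.4%, exact 95% interval 43.0 to 51.9), against 49.8% of the other IDR summits and 49.5% of all. Another 165 (32.9%) recurred in 2 replicates, 88 (17.5%) in 1 and 11 (2.19%) in none. For promoter peaks these shares were 36.0%, 13.2% and 0.902%, and for the other genic peaks 30.9%, 18.4% and 1.08%. When every listed peak counted, 434 (86.5%) lay in some peak of all 3, against 83.3% of promoter peaks and 90.3% of the other genic peaks. The median place of intergenic regions, as a percentile of the 30000 peaks with 100 the strongest, was 90.3, 90.5 and 90.9 in replicates 1, 2 and 3, against 91.8, 92.0 and 91.3 for the other IDR peaks. It was lower in 3 of 3 replicates, by 1.13 ± 0.670 on average (SD, n = 3; exact sign-flip permutation test, p = 0.25). By class, the other genic peaks had medians of 90.8, 91.0 and 91.5, and promoter peaks 92.6, 92.5 and 91.1.

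High places in the replicates are in part built in here, since the regions were picked by signal in the IDR list. The strongest regions held high places in every replicate. The first, with a signal of 2558, lay at 2R 13035345, 27434 bp past the end of Su(z)2, which encodes a Polycomb group protein, in the 36783 bp before CG13323. It stood in places 36, 26 and 16 of replicates 1, 2 and 3. The mitochondrial single-strand DNA-binding protein gene mtSSB and tara, a regulator of the cell cycle, flank the second and the eighth, at 3R 16222494 and 16224513, with signals of 1877 and 1366. These stand on either side of lncRNA:CR45643, which has more than one TSS, the nearest being 901 bp from the second region and 913 bp from the eighth. The second was in places 211, 54 and 23 and the eighth in places 321, 99 and 63, so both were lowest in replicate 1. Protein-coding genes named as flanking are the nearest on either side, and non-coding genes can lie between them and the region.

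The third and the fifth region lay upstream of chinmo, which encodes a BTB zinc-finger protein that sets the temporal identity of neurons. At 2L 1638795 the signal was 1772, with places 16, 60 and 314, and at 2L 1643473 it was 1520, with places 107, 63 and 110. The seventh, at 3L 10752771, had a signal of 1382 and places 51, 100 and 512, and its GC content was 20.4% at the summit and 44.3% in the flanks. The third and the seventh were thus far lower in replicate 3 than in replicates 1 and 2. The ninth, at 3R 14053598, lay 3347 bp upstream of foxo, the Forkhead factor of insulin signalling, with a signal of 1363 and places 155, 117 and 96. Of the others, the fourth lay in the 1118 bp between the divergent genes CG17896 and CG17778 (X 494005, signal 1616, places 67, 87 and 69). The sixth lay between blw, which encodes the ATP synthase alpha subunit, and CycB, the mitotic cyclin B gene, which point towards each other (2R 22802971, signal 1494, places 180, 113 and 53). The tenth was 1237 bp from the TSS of stck, an adaptor gene of integrin adhesion, with a signal of 1187 and places 277, 121 and 141. The eleventh was in the 437 bp between the ends of Sol1 and Cyp9f2, with a signal of 1178 and places 294, 173 and 108. The twelfth lay 750 bp from jp, which encodes junctophilin, with a signal of 1174 and places 465, 139 and 102. Across these 12 regions the places ran from 16 to 512, 9 of the 12 had lower GC at the summit than in the flanks, and 8 lay between divergent genes.

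**Figure D1:**
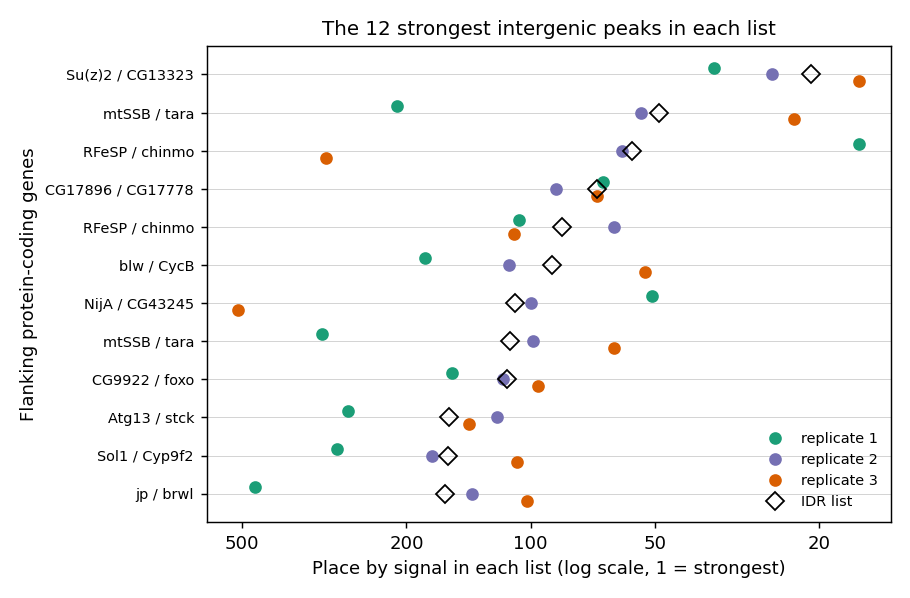
Place by signal, on a log scale with the strongest peaks to the right, of the 12 strongest intergenic regions in the lists of replicates 1, 2 and 3 (points) and in the IDR list (diamonds), 1 row per region named by its flanking protein-coding genes. Every region stands between places 16 and 512 of each replicate, with the region past Su(z)2 at places 36, 26 and 16.

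Some gaps between genes held several regions. A gap is the sequence between neighbouring annotated genes of any kind. The 502 regions lay in 396 gaps, of which 65 held 2 or more, together 171 regions (34.1%). Of the 502, 22 stood within 250 bp of another, in 11 pairs at most 240 bp apart, and 4, 5 and 2 of these pairs fell inside a single peak of replicates 1, 2 and 3. Counted as 1 summit each, the pairs left 491 regions and 61 gaps with 2 or more, a count added after the data were seen. The most regions, 8, lay in the 75047 bp between NijA, which encodes a Ninjurin adhesion protein, and CG43245. Their signals ran from 174 to 1382. That gap also held 2 of the 3 regions farthest from any TSS, at 3L 10735270 and 10738923, 36655 and 33002 bp from CG43245. The region at 10735270 had a signal of 323 and places 2558, 1910 and 1071, and the one at 10738923 had a signal of 441 and places 646, 1094 and 4041. The third far region was at 3L 6823990, 33832 bp from vvl, a POU-domain factor gene of neural and tracheal cells, with a signal of 280 and places 1384, 2650 and 4525.

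A second dense stretch lay upstream of chinmo. The 20910 bp between lncRNA:CR44603 and lncRNA:CR45695 held 6 regions, with signals of 309, 389, 979, 430, 1772 and 1520 in genome order, and each of the 6 recurred in the strongest peaks of all 3 replicates. Between lncRNA:CR45695 and chinmo were 3 more, the nearest pair 1604 and 1805 bp from the TSS of chinmo, with signals of 413 and 774. The third dense gap, 32964 bp between the tRNA gene tRNA:Ile-TAT-1-2 and CG13898, also held 6 regions, with signals from 179 to 1007. The strongest of these, at 3L 781339, had places 323, 208 and 187. A region beside the tRNA gene, at 3L 771553, was in the strongest peaks of no replicate, with places 4807, 5175 and 6714. The gap between scyl and Dyro had 6 regions as well, with a lower summed signal.

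Several regions had a Polycomb group gene as a flanking gene, and these genes were named after their values were seen. The strongest region lay past Su(z)2, but its nearest TSS was that of CG13323. Between the ends of CG13321 and Psc, whose product is a core subunit of Polycomb repressive complex 1, lay 4 regions with signals of 183 to 556. These 4 form 2 close pairs. Between ph-d and ph-p, the paired polyhomeotic genes, the regions at X 2124065 and 2124266 had signals of 1044 and 631. Both fell inside the same peak of replicate 1, in place 93, and of replicate 2, in place 223, and they were in places 798 and 1706 of replicate 3. Past RYBP, another Polycomb group gene, 4 regions had signals of 229 to 360, and 1 of these was in no peak of replicate 1 and 1 in no peak of replicate 2.

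**Figure D2:**
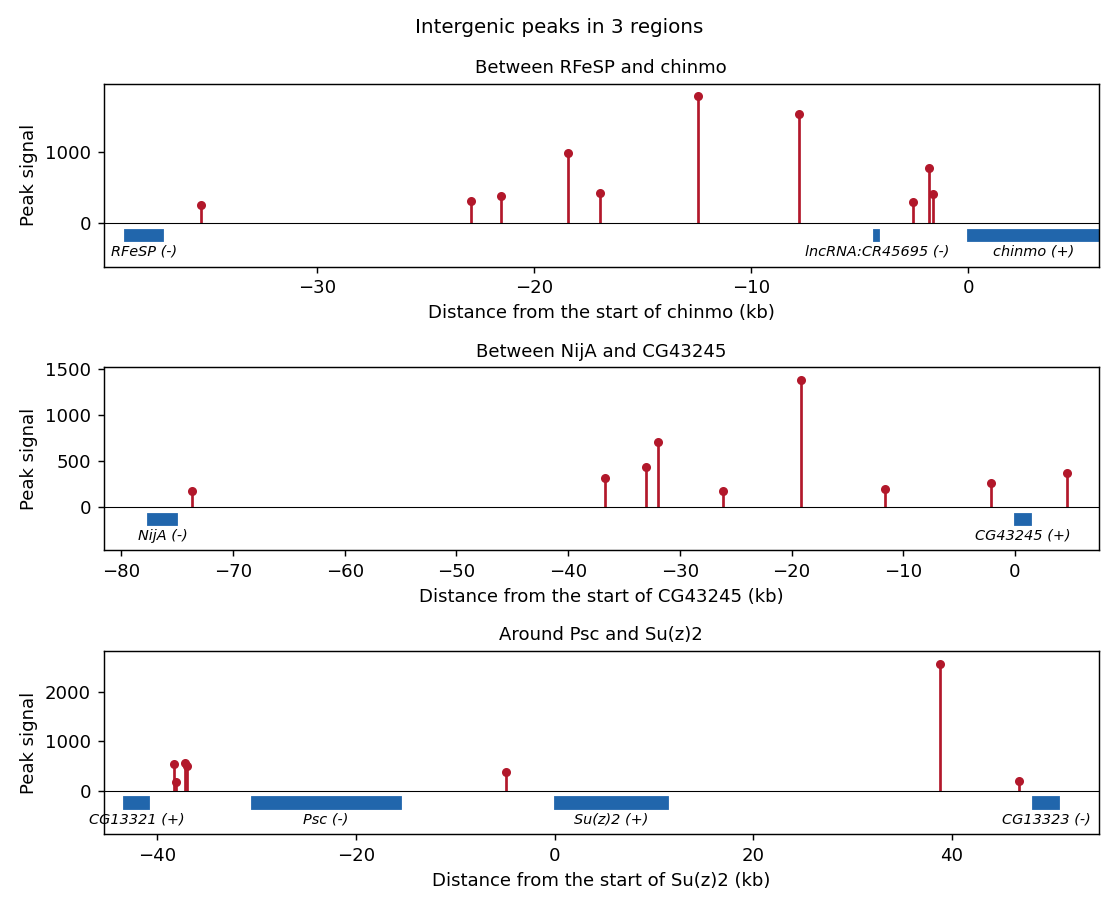
Signal of each intergenic region (red, in the authors' unstated unit) against its distance in kb from the start coordinate of chinmo, CG43245 or Su(z)2, with the named genes as blue boxes and their strand in parentheses; other genes are not drawn. The regions upstream of chinmo reach 1772, those between NijA and CG43245 reach 1382, and the region past Su(z)2 stands at 2558 with at most 556 around Psc.

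The density of regions fell with distance from a TSS even beyond 500 bp. Sequence that met the rule, which covered 38.6 Mb or 28.2% of the genome, held 43.2 regions per Mb between 500 and 1000 bp from a TSS and 2.95 per Mb beyond 10000 bp. The bins between had 25.1 per Mb up to 2000 bp, 16.7 up to 5000 bp and 8.85 up to 10000 bp. In numbers these were 124, 117, 153, 65 and 43 regions from the nearest bin to the farthest. The intergenic peaks among each replicate's own strongest gave 41.6 ± 5.05, 25.5 ± 0.248, 16.4 ± 0.852, 8.58 ± 0.593 and 2.93 ± 0.447 per Mb (SD, n = 3), and the order of the bins was the same in each replicate. The farthest bin includes the sequence of Y, where no list had a peak, and without Y it held 3.38 per Mb. Transposable elements and soft-masked sequence were left in the lengths of all bins, and their part in the fall was not tested. Signal did not follow distance, with a Spearman correlation of -0.06 over the 502 regions, given as a description since regions share libraries. The share that recurred in all 3 replicates was 46.8%, 55.6%, 46.4%, 44.6% and 34.9% from the nearest bin to the farthest, against 49.5% of all IDR peaks.

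**Figure D3:**
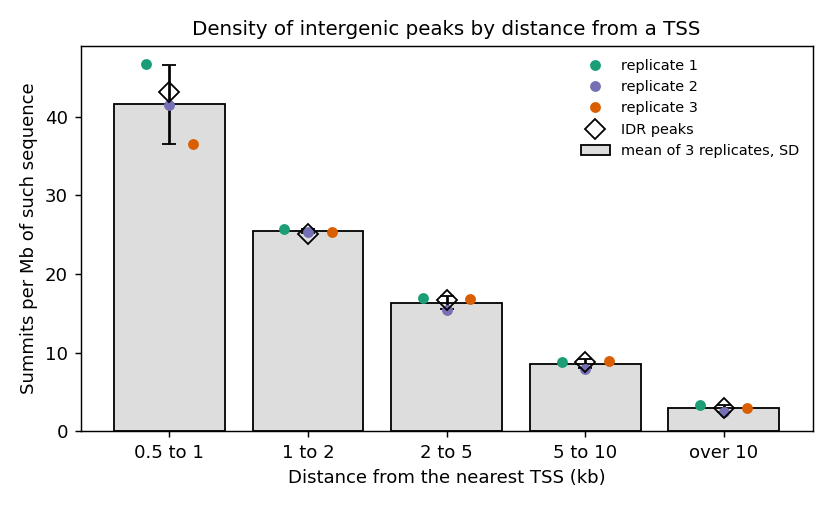
Intergenic summits per Mb of sequence that meets the rule, by distance from the nearest TSS in kb; bars are the mean of the 3 replicates' own lists with the SD, points are replicates and diamonds the IDR list. The replicate mean is 41.6 per Mb in the nearest bin and 2.93 per Mb in the farthest.

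The summits nearest to the 500 bp limit were of moderate signal. Just outside it, at 508 bp, stood a region near CG6225 (3R 12654069) with a signal of 343 and one near CG12402 (3R 14108829) with 367. Just inside, at 500 bp, summits near lectin-28C and lncRNA:CR45277 had signals of 167 and 267.

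As a share of the strongest peaks, intergenic regions made up 10.4% ± 0.556 of the replicates' lists (SD, n = 3), against 28.2% of the genome (lower in 3 of 3; exact sign-flip permutation test, p = 0.25). Since most peaks lie at promoters, the same share was taken among summits more than 500 bp from a TSS, a measure added after the data were seen. It was 23.8%, 24.2% and 22.8%, against 32.5% of the sequence that far from a TSS, a mean difference of -8.86 ± 0.742 percentage points, lower in 3 of 3 replicates (SD, n = 3; exact sign-flip permutation test, p = 0.25). The size of this difference rests on the settings: it was -2.22 ± 2.55 points with a limit of 200 bp and -4.63 ± 0.775 points without summits in transposable elements or soft-masked sequence. Across the large arms the density was 16.2 per Mb of rule-meeting sequence on 2L, 11.7 on 2R, 14.5 on 3L, 13.6 on 3R and 13.2 on X, against 13.0 over all arms. Chromosome 4 had 3 regions among its 4 IDR peaks, all in no peak of replicate 1. The strongest of the 3, near lncRNA:CR43437 at 4 424823, had places 652 and 719 in replicates 2 and 3.

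The GC dip was narrow. In windows of 51 bp the mean GC content of intergenic regions was 32.8% at the summit and 42.1% and 42.3% at 250 bp to the left and right. Promoter peaks dipped to 33.0% and the other genic peaks to 31.3%, and at 1000 bp to the right the means were 40.6% for intergenic regions, 44.7% for promoter peaks and 40.7% for the other genic peaks. The intergenic peaks of each replicate's own list had 33.7%, 34.2% and 36.8% within 100 bp of the summit in replicates 1, 2 and 3, against 41.9%, 41.1% and 41.0% in their flanks. The difference was -6.42 ± 1.99 percentage points (SD, n = 3, lower in 3 of 3; exact sign-flip permutation test, p = 0.25). Tiles of the same length laid end to end over all sequence that meets the rule averaged 40.8%. Promoter summits of the same lists had 33.4%, 35.2% and 38.9%, and the difference between intergenic and promoter summits, -0.941 ± 1.21 points, was within the spread between replicates (exact permutation test, n = 3, p = 0.5). The size of this difference depended on the settings, as given further on. Signal of the 502 regions did not follow their GC content, with a Spearman correlation of 0.02.

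**Figure D4:**
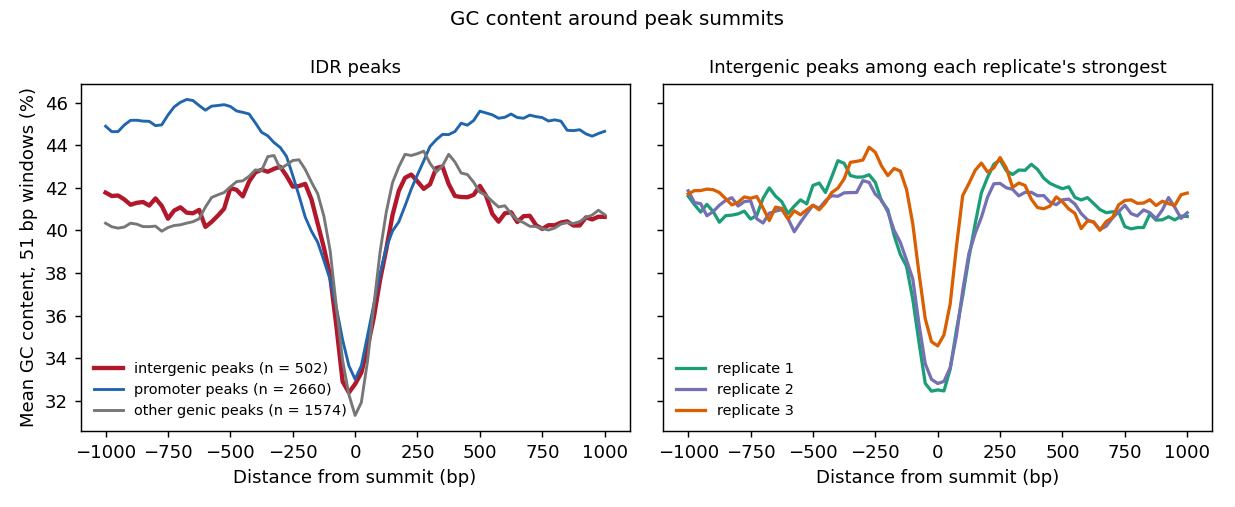
Mean GC content in percent in 51 bp windows against distance from the summit in bp, for intergenic, promoter and other genic IDR peaks (left) and for the intergenic peaks of each replicate's own strongest (right). All curves fall towards the summit, to 32.8% for intergenic regions, and replicate 3 stays above replicates 1 and 2 at the summit.

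The replicates differed in how they ranked regions by GC content. Of the 122 intergenic regions under 30% GC, 81.1% were in the strongest peaks of replicate 1 and 80.3% in those of replicate 2, but 62.3% in those of replicate 3. Of the 79 at 40% GC or above, the shares were 70.9%, 74.7% and 79.7%. The other IDR peaks showed the same order, with 88.4%, 85.1% and 63.3% under 30% GC and 58.5%, 81.1% and 82.8% at 40% or above. GC content moved with the replicate in both classes, and its part in the recurrence of single regions was not tested.

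Among 23 motifs of known factors and simple repeats, 10 were more frequent within 100 bp of intergenic summits than in the flanks in all 3 replicates and 8 were less frequent, none past the test (exact sign-flip permutation, smallest p = 0.25, adjusted p = 0.319 or higher by Benjamini-Hochberg over 23). Motifs were searched on both strands, and a match is a description of the sequence only. The CTCF core GGTGGCGC, shown above, was in 15 of the 502 summit windows (2.99%), against 0.896% of flanks, 0.399% of tiles and 1.16% of the other IDR peaks. Written backwards, the same letters were in none of the windows and in 0.254% of tiles. In the replicates' own lists the share was 2.49%, 3.60% and 2.67% at summits, against 0.669%, 0.847% and 0.926% in flanks. Its 17 matches lay close to the summit, with a median distance of 23.5 bp and 9 within 25 bp. The 15 regions had a median signal of 274, and the strongest was the one between jp and brwl.

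The Su(Hw) core TGCATA was in 95 summit windows (18.9%), against 13.5% of flanks, 13.3% of tiles and 13.9% of the other IDR peaks. Of these, the other genic peaks had it in 15.5% and promoter peaks in 13.0%. The letters of the core written backwards are a rarer word, in 5.18% of summit windows and 5.02% of tiles. TATAAA, the TATA box, was in 37.1% of summit windows, against 22.8% of flanks. Its letters written backwards, with the same base content, were in 55.4%, so the TATA count is no larger than that of another sequence of A and T. The Zelda motif CAGGTA, bound by the activator of the early zygotic genome, was in 4.98% of summits, against 3.49% of flanks and 4.40% of tiles. Its difference from flanks in the replicates, 1.28 ± 0.232 points (SD, n = 3), was 0.200 ± 0.501 points with a limit of 200 bp from a TSS, 0.222 ± 0.553 with 2000 bp and 0.368 ± 0.823 with the strongest 10000 peaks.

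Motifs of housekeeping promoters were less frequent in the intergenic regions than in promoter peaks. The element TATCGATA, bound by Dref at housekeeping promoters, was in 5 regions (0.996%), against 7.14% of promoter peaks, 0.797% of flanks, 0.453% of tiles and 0.191% of the other genic peaks. M1BP's motif GGTCACACT was in 1 region (0.199%), against 4.14% of promoter peaks, no flanking window and 0.100% of tiles. CGATA, part of the site of the insulator protein BEAF-32, which the Dref element also contains, was in 17.9% of regions, against 36.3% of promoter peaks and 22.3% of flanks. In the replicates' own lists its summits minus flanks came to -0.457 ± 1.06 points, with no common sign (SD, n = 3; exact sign-flip permutation test, p = 0.75). The E-box CAGCTG, read by proneural and myogenic factors, was in 2.79% of summits, against 7.67% of flanks and 6.87% of tiles. GAGAG, the GAGA factor's motif, was in 16.5% of summits and 24.0% of flanks, but in the replicates' own lists it was less frequent at summits in replicates 1 and 2 only, with 22.0% at summits and 21.5% in flanks in replicate 3.

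**Figure D5:**
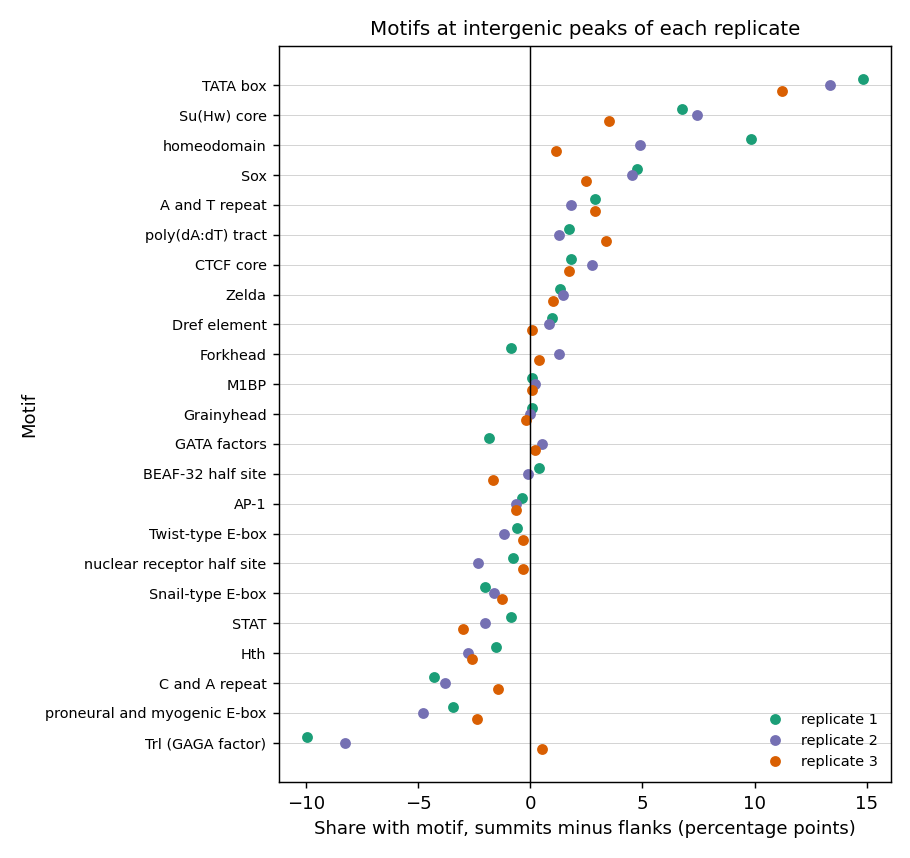
Share of intergenic summit windows with each of 23 motifs minus the share of flanking windows, in percentage points, for the intergenic peaks of replicates 1, 2 and 3. The TATA box and the Su(Hw) core lie to the right of 0 in each replicate, and the E-box of proneural and myogenic factors to the left.

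The scan of words, with no test, took words of 6 letters found in at least 40 regions and words of 8 letters found in at least 15. It ordered them by the percent of summits over the percent of flanks, with 1 added to both, and in that order AGTGTA and CACTGAGA came first. Other measures give other orders: GCCATCTA, in 2.99% of summits and 0.0996% of flanks, has the larger plain ratio. AGTGTA or its reverse complement was in 106 regions (21.1%), against 7.97% of flanks, 7.47% of tiles and 13.7% of the other IDR peaks. CACTGAGA was in 32 regions (6.37%), against 0.797% of flanks, 0.648% of tiles and 2.46% of the other IDR peaks. Promoter peaks had AGTGTA in 11.6% and CACTGAGA in 1.65%, below the shares of all other IDR peaks. The other genic peaks therefore lay above those shares, but they were not counted on their own. The replicates' own intergenic peaks had CACTGAGA in 4.21%, 4.45% and 7.2% of summit windows and 0.860%, 0.847% and 0.720% of flanks. Since the word was chosen by its excess in regions drawn from these same replicates, an excess in their lists is in part built in. Unlike the CTCF core, CACTGAGA did not sit at the summit: 6 of its 35 matches lay within 25 bp, and the median distance was 72.5 bp. The 32 regions had a median signal of 221, a median TSS distance of 4707 bp and recurrence of 62.5%, 50% and 78.1% in replicates 1, 2 and 3. The regions without the word had a median signal of 253, a TSS distance of 2078 bp and recurrence of 75.1%, 80.9% and 71.9%. Other leading words of 8 letters were ATGCACTG in 24 regions and TCAGTGCA in 29, which share letters with it, and GATGGCGC in 20, which shares letters with the CTCF core. No factor is assigned to these words.

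Genes on either side of a region were sorted by whether their 5′ ends faced it from both sides (divergent), from one side (tandem) or from neither (convergent). Divergent neighbours flanked 172 regions (34.3%; 33.8% ± 0.659 in the replicates' lists, SD, n = 3), against 22.4% of the sequence that meets the rule. Tandem pairs flanked 229 (45.6%), against 51.2% of that sequence, and convergent pairs 101 (20.1%), against 21.5%. Median signal was 263 between divergent, 247 between tandem and 246 between convergent genes. Median distance from a TSS was 1660 bp between divergent, 2016 bp between tandem and 3912 bp between convergent genes, and the part of distance in these shares was not tested.

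The nearest TSS belonged to a protein-coding gene for 357 regions (71.1%), against 64.9% of the rule-meeting sequence, and to a gene of the biotype ncRNA, which leaves out tRNA and snoRNA genes, for 132 (26.3%), against 26.5%. A pseudogene was nearest for 1 (0.199%), against 7.08% of the sequence, a share that includes repeat-rich sequence and Y. A tRNA gene was nearest for 11 (2.19%), against 0.852%, in the replicates 1.88% ± 0.533 (SD, n = 3). Their distances from that TSS ran from 526 to 13912 bp, and the strongest, at 3L 781339, lay 10976 bp away. Several of these 11 share a tRNA cluster, such as tRNA:Ile-TAT, tRNA:Phe-GAA and tRNA:Gly-GCC. The strongest by the tRNA:Phe-GAA genes, at 3R 13800508, had a signal of 563 and places 1429, 790 and 341. A snoRNA gene, snoRNA:Psi28S-3436b, was nearest for 1 region (signal 251), and a microRNA gene, mir-219, for 1 (signal 171), while no region was nearest to an rRNA or snRNA gene.

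The 11 lists of protein-coding genes named by role together had the nearest TSS for 37 regions (7.37%), against 4.59% of the sequence, and a flanking gene for 95 (18.9%), against 14.5%. Chromatin and insulator genes flanked 12 regions (2.39%), against 0.309% of the sequence, and 2.63% ± 0.399 of the replicates' intergenic peaks (SD, n = 3). These were Psc, Su(z)2, ph-d, ph-p, psq, a BTB protein gene, and His3.3B, one of the genes for histone H3.3. A pair of regions lay between lola and psq, at 2R 10544739 with a signal of 312 and places 2347, 1925 and 1772, and at 2R 10557239, nearest to psq, with a signal of 193 and places 2566, 4040 and 17365. The one near His3.3B had a signal of 224, places 5926, 2829 and 5464, and a CTCF core. The 12 regions rest on few genes, and close pairs count among them. A flanking gene need not be the nearest, and by nearest TSS the list had 4 regions (0.797%), against 0.0799% of the sequence. Su(z)2 flanks the strongest region, whose nearest TSS was that of CG13323.

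Developmental regulators outside the Hox complex were a further group. Homeobox, T-box and Forkhead genes of the list had the nearest TSS for 9 regions (1.79%), against 0.623% of the sequence, led by the region upstream of foxo, beside which a close pair lay at 3R 14052290 and 14052492 with signals of 688 and 189. Segmentation genes were nearest for 7 (1.39%), against 0.891%, the strongest between the Forkhead genes slp1 and slp2 at 2L 3832499, with a signal of 584 and places 1085, 958 and 288. Dorsoventral and mesoderm genes were nearest for 4 (0.797%), against 0.516%, led by bin, the Forkhead gene of visceral mesoderm, at 3L 6989276 with a signal of 523 and places 569, 937 and 1969. The T-box gene Doc2 had a region at 3L 9025874, with a signal of 420 and places 1649, 857 and 1083. Neural and glial regulators were nearest for 6 (1.20%), against 0.812%, led by the region at 3L 14111624 between Sox21a and Sox21b, with a signal of 515 and places 548, 1227 and 1390. These shares differ from those of the sequence by few regions, and no test was made of them. The lists overlap: a close pair near bin, at 3L 6989276 and 6989477, counts in the Forkhead list and in the dorsoventral list. The region between slp1 and slp2 counts in the segmentation and Forkhead lists, and the one near ptc in the segmentation and signalling lists. By either flanking gene, neural and glial regulators had 14 regions (2.79%), against 2.88% of the sequence. The homeobox, T-box and Forkhead list had 2.79%, against 1.52%, by that measure. Segmentation genes had 3.98%, against 2.49%, and dorsoventral and mesoderm genes 2.39%, against 1.53%.

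For other roles the shares by nearest TSS were close to those of the sequence or rested on single regions. Signalling genes were nearest for 3 regions (0.598%), against 0.473%: the Wnt receptor gene fz had a signal of 533 at 3L 14272585 and places 466, 643 and 3991, the Hedgehog receptor gene ptc had 472 at 2R 8644374 and places 2162, 1199 and 350, and Wnt4 had 278. Synaptic and axon guidance genes were nearest for 5 (0.996%), against 0.960%, with dpr20 strongest at 424. A single region each was nearest to the E(spl) complex, between E(spl)mbeta-HLH and E(spl)malpha-BFM with a signal of 468, to the nuclear receptor gene Hr38 (224) and to the phosphatase gene Mkp3 of the stress list (229). Cytosolic ribosomal protein genes were nearest for 2 (0.398%), against 0.412%, with RpS15Aa at 189. No region was nearest to a Hox complex or mitochondrial ribosomal protein gene, although 2 regions had abd-A as a flanking gene.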

How the data were processed

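Peaks came from anti-GFP ChIP-seq of Dek-GFP embryos in 3 biological replicates, on the dm6 build per the labels. The authors deposited a list of peaks for each replicate, a pooled list and the IDR list. The deposited signal value of each peak has no stated unit, and depth is unknown. The deposited −log10 q served as a description alone. Which aligner, peak caller and IDR threshold were used is not given in the sources used here. Per the deposited description files, the replicate lists share 1 further input file that they do not identify.

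Summits were assigned with Ensembl release 115 gene models, transposable elements left out, and sequence came from the RefSeq copy of Release 6. Of 13944 protein-coding symbols in both annotations, 13942 had the same coordinates. GC content and motifs were read in windows reaching 100 bp to each side of the summit, and of positions 500 bp to either side of it. The background was all sequence meeting the rule, and in the replicates as many of the strongest peaks as the IDR list holds. Replicates were compared by an exact two-sided sign-flip permutation test. Intervals for shares are exact Clopper-Pearson and cover counting error only, and since neighbouring summits can share reads they are too narrow to that extent. The labels call the replicates biological, and p-values measure the spread between them. The regions, gene lists and motifs were chosen with earlier results of these data known. Named regions are the 12 strongest, the 3 gaps with most regions, the 3 regions farthest from a TSS, those at the 500 bp limit and the strongest per gene list; any other region in the text was named after its values were seen. Scripts were tested on simulated data. Python 3.11.15, numpy 2.4.6, pandas 2.3.3, scipy 1.17.1, statsmodels 0.14.6 and matplotlib 3.10.9 were used.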

Additional observations from a re-analysis of the deposited data

How the results depend on the processing

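The count of 502 regions depends on its limits. It was 840 with a limit of 200 bp from a TSS and 261 with 2000 bp, 218 among the stronger IDR peaks, those above the median place, and 270 to 306 when a replicate was left out, by keeping only summits in the strongest peaks of both others. The share with a listed gene nearest, 7.37%, was 6.55%, 8.20% and 9.58% with limits of 200, 1000 and 2000 bp, 9.02% with protein-coding genes only, 6.46% without masked sequence, 8.26% among the stronger peaks and 18.9% by either flanking gene. Leaving out a replicate gave 7.92% to 8.17%. The divergent share, 34.3%, was 40.5%, 30.4% and 28.0% with limits of 200, 1000 and 2000 bp, 33.2% with protein-coding genes only and 37.2% among the stronger peaks, and leaving out a replicate gave 34.6% to 35.9%. The difference in GC content from promoter summits turned to 0.0610 points with 0.5 times as many peaks per replicate, and the difference in recurrence to 0.457 points with the strongest 10000. That GC difference was -2.80 ± 1.01 points with a limit of 200 bp and -1.44 ± 1.20 without masked sequence (SD, n = 3). In both settings the exact sign-flip permutation test gave p = 0.25, the lowest it can give. Recurrence was -6.64 points with the smaller lists, -0.531 without masked sequence, and -3.64 to -1.27 when a replicate was left out. Small motif differences also changed sign: AP-1 to 0.199 points beyond 2000 bp and 0.503 in wider windows, the Dref element to -0.0803 with the smaller lists, CATATG to 1.05 beyond 200 bp, 0.0903 beyond 2000 bp and 0.375 with flanks at 1000 bp, the nuclear receptor site to 0.0182 beyond 200 bp, 0.136 beyond 2000 bp and 0.147 with the smaller lists, and poly(dA:dT) to -1.63 beyond 2000 bp. The cause was not tested. For recurrence and percentile, a replicate was left out of the values only, a choice made after seeing the data, since the planned filter fixes recurrence in the others. No paired analysis was possible because all samples form 1 group, so no groups were compared; the tests within a replicate pair its own summits with their reference. The unknown depth, the lack of an input library and 3 replicates, which cannot give p below 0.25, limit every comparison.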
